A study of Capra hircus with 18 samples.

Results

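Blood of goats transported by road for 30 min was compared with blood of goats that were not transported. The animals were uncastrated male Spanish goats aged 8 months. Before the experiment they had grazed pasture and received grain, and all of them went without feed for the preceding night. The transported group spent 30 min, about 50 km, in a livestock trailer, whereas the control group stayed in pens. Each treatment had 18 goats, of which 4 goats transported for 30 min (goats 21, 22, 24 and 27) and 7 control goats (goats 1, 3, 4, 6, 7, 8 and 9) were sequenced here. Treatments were run on 2 days at different ambient temperatures, and the labels give no day for a goat, so day and treatment cannot be told apart within these libraries. Jugular blood for RNA was drawn after transport into a tube that lyses and preserves whole blood, so that white cells, immature red cells and platelets all add to the RNA.

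The table for this comparison listed 430 genes, of which 311 had a name. All 430 had a p-value under 0.05 in the authors' own test of the same 11 goats. The differences between groups are therefore a description of genes that had already been picked for differing, and the tests below say how large each difference was against the spread between goats, not how many genes of the goat genome responded. In total, 253 of the 430 genes had a mean normalized count of at least 50 over the 11 goats and are called well covered. Normalized counts are reads divided by 1 scaling factor per goat. Of the well-covered genes, 198 were named and 244 were protein coding.

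The effective library sizes, which were recovered from the deposited FPKM values, ranged from 10443023 to 39473244 fragments in the control group and from 13992574 to 22855051 in the 30 min group. Control goat 8 had the smallest library. Reads on the 430 listed genes were 0.926 to 1.48% of the control libraries and 1.24 to 1.67% of the 30 min libraries. Markers of other blood cells could be checked only as far as they were listed. Of the marker lists, 6 of 22 B cell genes, 4 of 36 neutrophil genes, 2 of 19 natural killer cell genes and 1 of 21 red cell genes were in the table, and none of the monocyte, T cell, eosinophil or platelet genes.

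Handling and transport activate the hypothalamic-pituitary-adrenal axis and the sympathetic nervous system. Glucocorticoids and catecholamines then reach blood leukocytes, where the glucocorticoid receptor switches on a set of genes that restrain inflammatory signalling, such as *NFKBIA* and *TSC22D3*. The same hormones are known to release neutrophils from vessel walls and bone marrow and to move lymphocytes out of the circulation. The paper counted leukocytes by treatment. It reports more neutrophils and fewer lymphocytes after transport for 180 min than in either the 30 min or the control goats. For these counts it states no difference between the 30 min and control groups. In bulk blood, fewer cells of a type and less RNA per cell cannot be told apart.

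Among all listed genes, 127 had a higher and 303 a lower mean log2 level in the 30 min group. Among the well-covered genes the split was 103 higher and 150 lower, also when scaled by effective library size. It was 133 and 120 when each goat was centred on its median listed gene, which moved the median difference of all listed genes by 0.69 on the log2 scale. Most listed genes were lower, so this centring takes part of that decrease away by construction. With limma and Benjamini-Hochberg adjustment over the 430 genes, 8 genes rose (1.86% of those listed) and 1 fell (0.233%) at an adjusted p under 0.05. Of these, 7 that rose and the 1 that fell were well covered. Without adjustment, 93 genes (21.6%) were higher and 105 (24.4%) lower at a p under 0.05. All 4 transported goats lay above all 7 control goats in 28 genes (6.51%) and below all of them in 7 genes (1.63%). Among the well-covered genes these counts were 26 (10.3%) and 5 (1.98%), those at an unadjusted p under 0.05 were 72 (28.5%) and 52 (20.6%), and the 7 called higher were 2.77%. With each goat centred on its median listed gene, 81 listed genes were higher and 0 lower without overlap. On that scale limma called 118 listed genes higher and 3 lower.

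The calls lay close to the threshold. Without control goat 1 no gene passed the adjusted threshold in limma (78 higher and 88 lower at an unadjusted p under 0.05), and without 30 min goat 24 none did either (58 higher and 47 lower). *NFKBIA* then differed by 1.67 and 1.63 on the log2 scale (adjusted p = 0.0663 and 0.0727), against 1.68 with all goats, and *GADD45A* by 1.43 and 1.40, against 1.43. DESeq2 on the same counts called 117 genes higher and 238 lower, edgeR with the deposited scaling factors called 23 higher and 0 lower, and edgeR's TMM called 17 higher and 0 lower.

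**Figure D1:**
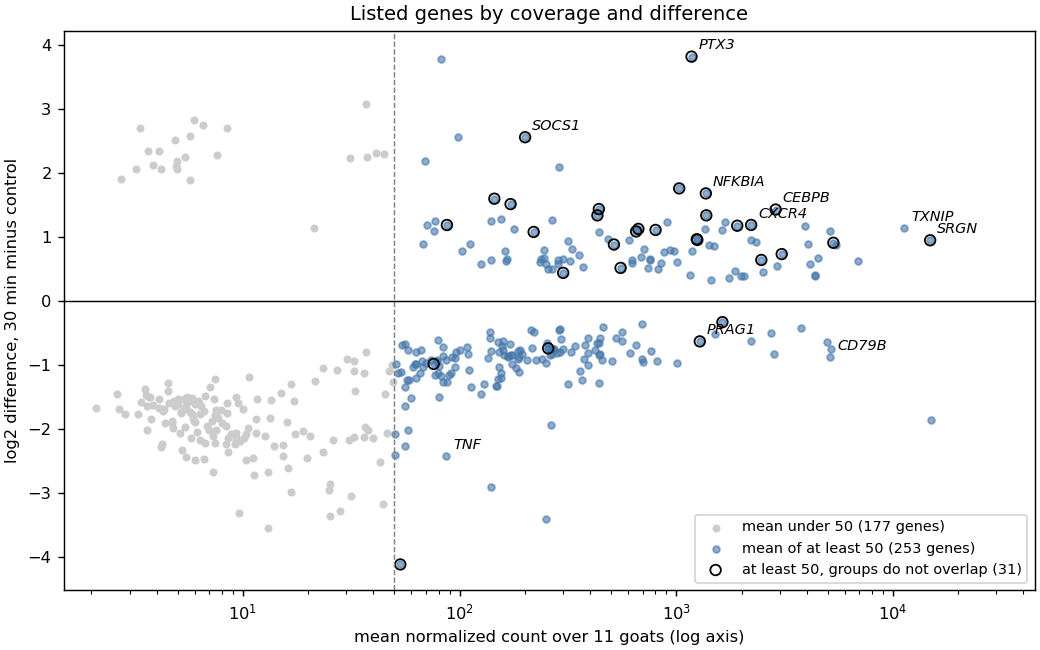
Mean normalized count over the 11 goats (log axis) against the difference of mean log2(normalized count + 1), 30 min minus control, for the 430 listed genes. Grey points are the 177 genes under a mean of 50, blue points the 253 well-covered genes and black rings the 31 well-covered genes whose groups do not overlap, 26 of them higher and 5 lower. Low-coverage genes sit mostly below zero, while the higher genes reach larger counts.

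The higher and lower well-covered genes differed in coverage. The 103 higher genes had a median mean count of 691 and a median length of 1845 bases, and the 150 lower genes had 172 and 1086 bases. The median difference was 0.85 on the log2 scale for the higher genes and -0.88 for the lower genes, beside -0.65 for all 253 well-covered genes and -0.92 for all 430 listed genes. On the log2 scale the median SD of the higher genes was 0.45 among control goats and 0.38 among transported goats. For the lower genes it was 0.76 and 0.45, and the control SD was the larger in 108 of 150 lower genes.

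*NFKBIA* and *SOCS1* had the smallest adjusted p in the table. *NFKBIA* on chromosome 21 (45051852 to 45054610) encodes the inhibitor that keeps NF-κB in the cytoplasm. It had 3406, 1774, 2639 and 1959 normalized counts in goats 21, 22, 24 and 27, against a lowest, median and highest control value of 437, 795 and 863. Every transported goat lay above every control goat. *NFKBIA* rose from a mean of 754 ± 151 (SD, n = 7) to 2445 ± 741 (n = 4), a difference of 1.68 ± 0.28 (SE) on the log2 scale (adjusted p = 0.0209; exact permutation p = 0.00303, the smallest that 330 splits of 4 against 7 can give).

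*SOCS1* on chromosome 25 (9798307 to 9798966), which blocks JAK-STAT signalling from cytokine receptors, had 271, 351, 628 and 436 normalized counts in the transported goats. The control goats had 33.5, 84.3 and 114 as lowest, median and highest value. The groups did not overlap, and *SOCS1* rose from 74.3 ± 32.0 to 422 ± 153, or by 2.56 ± 0.41 on the log2 scale (adjusted p = 0.0209, exact p = 0.00303). *SOCS3*, another member of that family, did not pass the test, with 1338 ± 541 against 773 ± 244 (0.77 ± 0.33, exact permutation p = 0.0242) and overlapping groups. *SOCS3* is named here after its values were seen.

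Of the 34 listed brakes on cytokine signalling, 6 were in the table and all were well covered, 5 of them higher and 1 lower (median 0.81). *SOCS1* was the only one called, beside 2.77% of the well-covered genes called higher, with *DUSP1*, *SAMSN1*, *PRDM1* and *SOCS3* higher by 1.13, 0.85, 0.64 and 0.77 on the log2 scale. *DUSP1*, a phosphatase that switches off MAP kinases, had 2561, 1305, 2270 and 2051 counts in the transported goats against 464, 996 and 1306 in the control goats. One control goat reached the lowest transported goat (adjusted p = 0.0912). *BATF*, a partner of the AP-1 factors in lymphocytes, was the lower member, with 264 ± 56.9 against 512 ± 267 (-0.77 ± 0.46, adjusted p = 0.145).

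**Figure D2:**
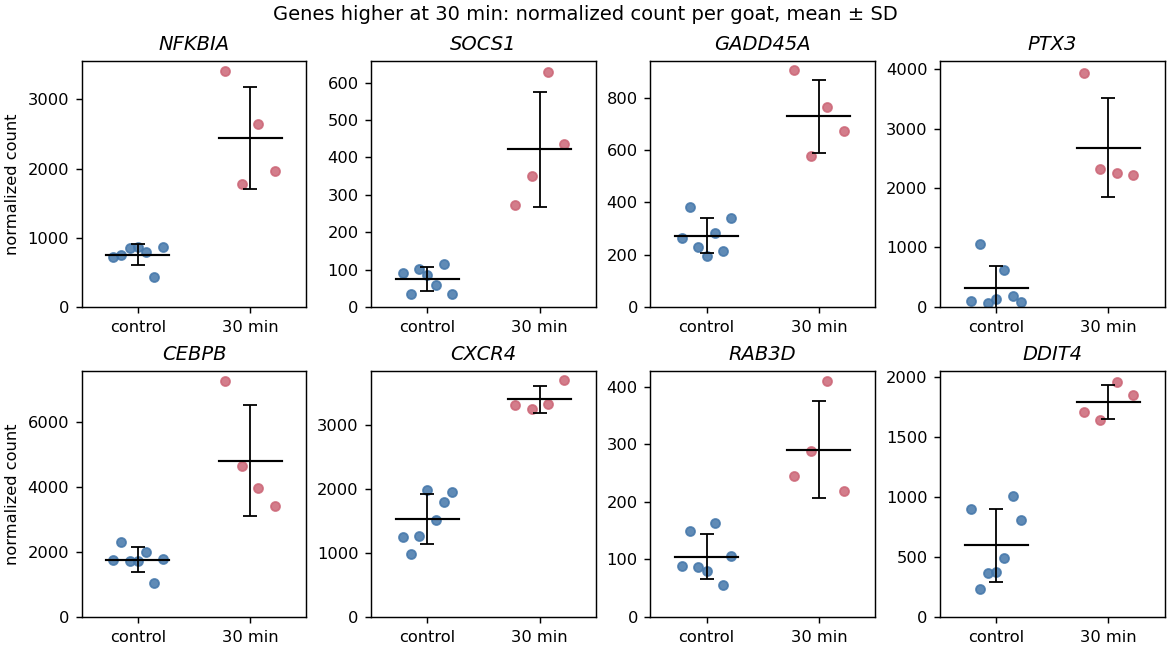
Normalized count in each of the 7 control goats (blue) and the 4 goats transported for 30 min (red) for *NFKBIA*, *SOCS1*, *GADD45A*, *PTX3*, *CEBPB*, *CXCR4*, *RAB3D* and *DDIT4*, with the mean as a horizontal line and the SD as an error bar. Each vertical axis starts at 0. In all 8 panels every transported goat lies above every control goat.

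Glucocorticoid-induced genes were the list with the most members in the table. Of 45 genes, 14 were listed. All 14 were well covered and higher, 4 were called and 8 had groups that did not overlap, beside 2.77% and 10.3% of the well-covered genes. The table's genes had been picked on this contrast, and this list and the others were chosen with earlier results of these data known. The counts are therefore a description. The median difference of the 14 members was 1.16, beside 0.85 for all higher well-covered genes. The 4 called members were *NFKBIA*, *SOCS1*, *CEBPB* and *CXCR4*. *SOCS1* also stood among the brakes on cytokine signalling, *CXCR4* among receptors and trafficking and *NFKBIA* in a list of NF-κB and its brakes. Of the 27 genes of the NF-κB list, 4 were listed and 3 well covered. All 3 were higher, 1 was called and 2 had no overlap (median 1.24), beside the same shares of the well-covered genes. *CEBPB* on chromosome 13 (77740508 to 77741563), a transcription factor of myeloid cells and of the acute-phase response, had 7263, 4644, 3964 and 3410 counts against 1038, 1746 and 2317 in the control goats. *CEBPB* rose from 1760 ± 386 to 4820 ± 1705 (1.43 ± 0.29, adjusted p = 0.0419, exact p = 0.00303). The lowest control value was that of goat 8.

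Several further glucocorticoid targets had groups that did not overlap but missed the adjusted threshold. Of the genes given next, *TSC22D3* and *CRISPLD2* are named after their values were seen. *DDIT4*, an inhibitor of mTOR complex 1, had 1712, 1646, 1963 and 1851 counts against 236, 488 and 1006, a difference of 1.76 ± 0.41 (adjusted p = 0.0542, exact p = 0.00606). Its transported goats differed by little among themselves, and its control goats spread widely. *SGK1*, a kinase induced by glucocorticoids and mineralocorticoids, had a mean of 2213 ± 680 against 897 ± 328 (1.34 ± 0.34, adjusted p = 0.0757). *TSC22D3*, which encodes the glucocorticoid-induced leucine zipper, had 10242, 5744, 7151 and 7106 counts against 2651, 4272 and 4908 (0.91 ± 0.26, adjusted p = 0.0874, exact p = 0.00303). *CRISPLD2*, a secreted protein that binds endotoxin, differed by 0.73 ± 0.26 and *TXNIP*, which inhibits thioredoxin, by 1.13 ± 0.42, the latter with overlapping groups.

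Immediate early genes, which are transcribed within minutes of a stimulus without new protein synthesis, were mostly higher but none was called. Of 41 genes, 8 were listed and 7 well covered, 6 higher and 1 lower (median 0.87). At an unadjusted p under 0.05 in limma were 4 higher members, beside 28.5% of the well-covered genes, of which 2.77% were called higher. *FOS*, a subunit of AP-1, was the one member without overlap, beside 10.3% of the well-covered genes. It had 584, 1417, 467 and 440 counts against 167, 251 and 389 (1.34 ± 0.38, adjusted p = 0.0823, exact p = 0.00303), and goat 22 stood well above the other transported goats. *MYC*, a growth regulator, had 2010, 1707, 1965 and 1988 against 590, 1235 and 1747 (0.87 ± 0.36, adjusted p = 0.103). *KLF4*, a factor of myeloid cells, had 275 ± 110 against 124 ± 44.7. *JUN* and *ZFP36*, which are outside the naming rule, were higher by 0.66 and 0.45. *IER2*, also outside it, was the lower member at -0.53, which became 0.17 when goats were centred on their median listed gene.

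Genes of cell death and growth arrest were 7 of 49, all well covered. Of these, 6 were higher, 1 called and 4 without overlap (median 1.34), beside 2.77% called higher and 10.3% higher without overlap among the well-covered genes. *GADD45A* on chromosome 3 (43246366 to 43250380), which is induced by DNA damage and other stress and arrests the cell cycle, had 906, 577, 766 and 673 counts against 196, 265 and 383 in the control goats. All transported goats lay above all control goats. *GADD45A* rose from 273 ± 68.2 to 731 ± 140 (1.43 ± 0.26, adjusted p = 0.0283, exact p = 0.00303). *FasL*, the ligand through which cytotoxic lymphocytes trigger apoptosis, had 166, 168, 426 and 246 counts against 46.7, 84.3 and 138 (1.60 ± 0.42, adjusted p = 0.0757) without overlap.

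Of 49 cytokine and chemokine genes, 5 were listed and 3 well covered. *PTX3* on chromosome 1 (109705569 to 109711190), a soluble pattern-recognition molecule stored in neutrophil granules, had 3934, 2317, 2254 and 2213 counts in the transported goats against 57.6, 127 and 1049 in the control goats. *PTX3* rose from 317 ± 377 to 2680 ± 838 (3.82 ± 0.75, adjusted p = 0.0393, exact p = 0.00606). Control goats 3 and 7 had 1049 and 623 counts, whereas each of the other control goats was under 200. *CXCL8*, the chemokine that attracts neutrophils, had 227, 55.9, 120 and 306 counts against 0, 12.9 and 108, and did not pass the test (3.79 ± 1.24, adjusted p = 0.0980, exact p = 0.0242). Its highest control value, 108 in goat 8, lay above 1 transported goat.

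*TNF*, an early inflammatory cytokine, was the lower member of that list. It had 75.5, 31.2, 0 and 53.9 counts in the transported goats and 36.0, 114 and 209 as lowest, median and highest control value. Its groups overlapped through control goat 8, and the difference was -2.43 ± 1.02 on the log2 scale, with 1 transported goat at no read (adjusted p = 0.103, exact permutation p = 0.0152). Without that goat, goat 24, it was -1.01. *TLR4*, the endotoxin receptor, had 951, 1155, 1246 and 1386 counts against 554, 611 and 1043 (0.77 ± 0.26, adjusted p = 0.101).

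All 10 well-covered genes of leukocyte receptors and trafficking were higher, of 12 listed and 45 in the list (median 1.10). One was called and 4 had no overlap, beside 2.77% and 10.3% of the well-covered genes. *CXCR4* on chromosome 2 (74974367 to 74980350), the receptor for CXCL12 that holds leukocytes in the marrow, had 3309, 3249, 3338 and 3708 counts against 983, 1513 and 1992. The transported goats lay close together. *CXCR4* rose from 1537 ± 390 to 3401 ± 208 (1.19 ± 0.26, adjusted p = 0.0430, exact p = 0.00303). *CD69*, an early activation marker that retains lymphocytes in tissue, had 418 ± 108 against 181 ± 74.8 (1.26 ± 0.35, adjusted p = 0.0823). *ICAM1*, the ligand of leukocyte integrins, had 220 ± 67.7 against 93.6 ± 32.3 (1.24 ± 0.32, adjusted p = 0.0757). *HYAL2*, a surface hyaluronidase, had 137 ± 57.4 against 59.0 ± 17.2 without overlap. *SRGN*, the core protein of granule proteoglycans and outside the naming rule, had the highest level per length, with a mean FPKM of 2563 against 1335, and no overlap (0.95 ± 0.30, adjusted p = 0.0964).

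*RAB3D* on chromosome 7 (95601196 to 95607961), a small GTPase of secretory granules, was in none of the lists. It had 245, 288, 409 and 219 counts against 54.9, 88.4 and 163, and rose from 104 ± 39.1 to 290 ± 84.4 (1.51 ± 0.34, adjusted p = 0.0430, exact p = 0.00303). The only called gene of low coverage was *TRIM45*, a ubiquitin ligase, with 9.96, 7.19, 15.4 and 9.89 counts against 0, 0.862 and 5.73. Its groups did not overlap, at about 10 counts in the transported goats.

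**Figure D3:**
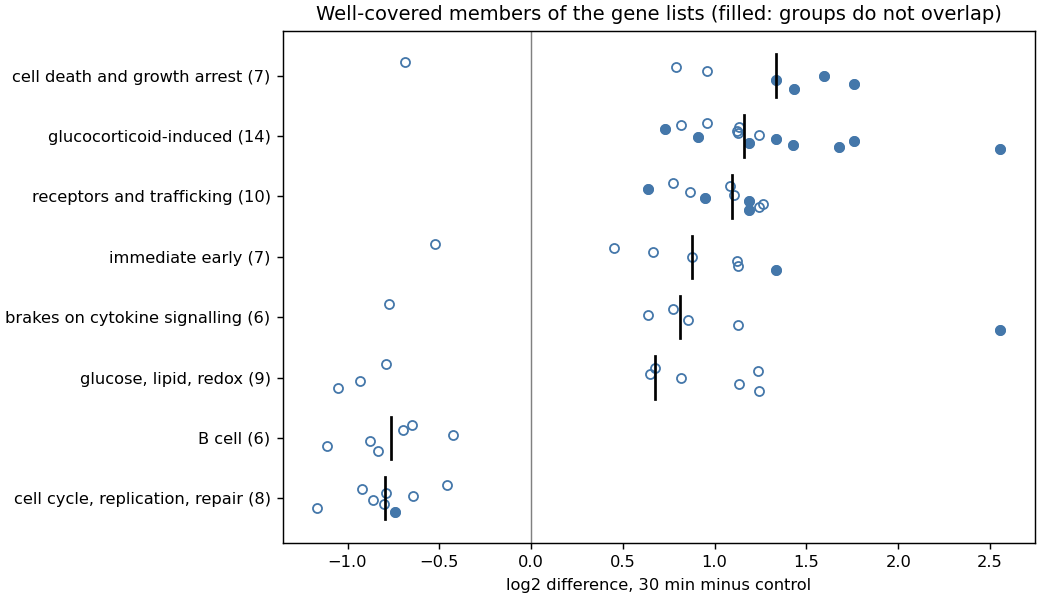
Difference of mean log2(normalized count + 1), 30 min minus control, for the well-covered members of each gene list with at least 6 such members, whose number stands in brackets. Filled points are genes whose groups do not overlap, open points genes whose groups overlap and vertical bars the medians. The glucocorticoid-induced and trafficking members all lie above zero, and the B cell and cell cycle members all lie below it. In each of the B cell and cell cycle lists, 2 genes turn higher when goats are centred on their median listed gene. None of them does when scaled by effective library size.

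Of 36 neutrophil markers, 4 were listed and 3 well covered. These 3 were higher in the 30 min group, with none called (2.77% of the well-covered genes were called higher), overlapping groups in each (10.3% were higher without overlap) and all 3 at an unadjusted p under 0.05 (28.5%). Among them were *VNN1* and *C5AR1*. *C5AR1*, the receptor for the complement fragment C5a, had 10318, 6003, 5961 and 8216 counts against 3098, 3611 and 6727 (0.87 ± 0.30, adjusted p = 0.101). The summed level of *VNN1* and *C5AR1*, nearly all of it from *C5AR1*, was 3144 to 6769 normalized counts in the control goats. In the transported goats it was 6025 to 10420, so that the ranges overlapped. These genes moved in the same direction as the receptor, trafficking and glucocorticoid lists, and their part in those results was not tested.

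B cell genes were lower in the 30 min group, but none was called, beside 0.395% of the well-covered genes called lower. Of 22 markers, 6 were listed, all well covered and all lower (median -0.77). In limma, *CD72* alone had an unadjusted p under 0.05, beside 20.6% of the well-covered genes. When goats were centred on their median listed gene, a scale that takes part of the decrease away, the median was -0.07. *CD79A* and *MS4A1* then turned to 0.04 and 0.27. Scaled by effective library size, all 6 stayed lower (median -0.72). *CD79B*, which pairs with CD79A in signalling from the B cell receptor, had 2625, 3068, 3754 and 2530 counts in the transported goats and 2608, 6467 and 11481 as lowest, median and highest control value (-0.88 ± 0.45, adjusted p = 0.118, exact permutation p = 0.0970). Control goats 4, 6 and 7 had 3332, 3107 and 2608, within the range of the transported goats, and goats 8 and 9 had 11481 and 10542. *MS4A1*, which encodes CD20, had 3133, 2767, 3573 and 2872 against 3169, 4242 and 5011 (-0.43 ± 0.23, exact p = 0.0182). *CD72*, a brake on the B cell receptor, had 77.2, 185, 134 and 122 against 128, 218 and 338 (-0.84 ± 0.33, adjusted p = 0.103, exact p = 0.0212). *VPREB3*, expressed during B cell development, had 105 ± 61.6 against 235 ± 152.

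**Figure D4:**
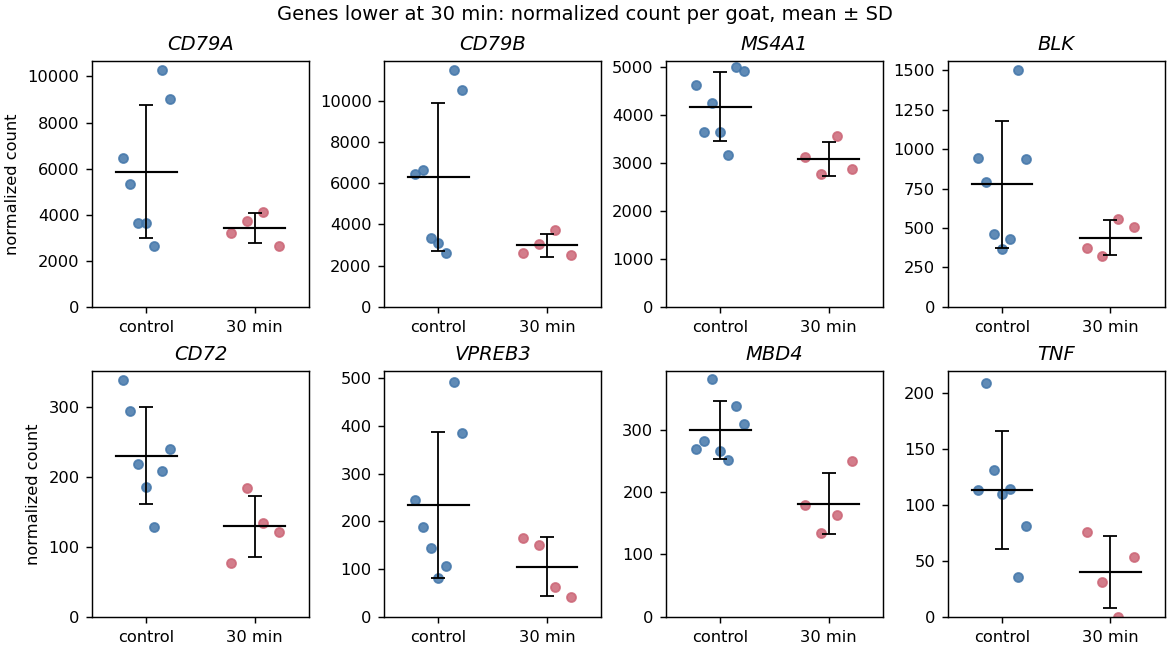
Normalized count in each of the 7 control goats (blue) and the 4 goats transported for 30 min (red) for the B cell genes *CD79A*, *CD79B*, *MS4A1*, *BLK*, *CD72* and *VPREB3*, for the repair gene *MBD4* and for *TNF*, with the mean as a horizontal line and the SD as an error bar. Each vertical axis starts at 0. In *MBD4* every transported goat lies below every control goat on this scale, and in the other panels the groups overlap.

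The summed level of the 6 B cell genes was 9103 to 28976 in the control goats and 8692 to 12195 in the transported goats. The wide control range was shared by many lower genes. The highest control value came from goat 8 in 63 and from goat 9 in 54 of the 150 lower well-covered genes. Goats 4, 6 and 7 lay at or below the highest transported goat in 88, 99 and 104 of the 150 genes, and goats 8 and 9 in 10 and 4.

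Each goat was also summarised by the median deviation of its genes from the control mean. For the 103 higher genes, the control goats lay between -0.25 and 0.23 and the transported goats between 0.68 and 1.08, so the groups were apart. For the 150 lower genes, the control goats were split. Goats 4, 6 and 7 lay at -0.52, -0.59 and -0.65, goats 1 and 3 at 0.13 and 0.19 and goats 8 and 9 at 0.70 and 0.69, and the transported goats at -0.89, -0.60, -0.97 and -0.83. The listed genes were chosen on the contrast between these groups, so this summary is a description.

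**Figure D5:**
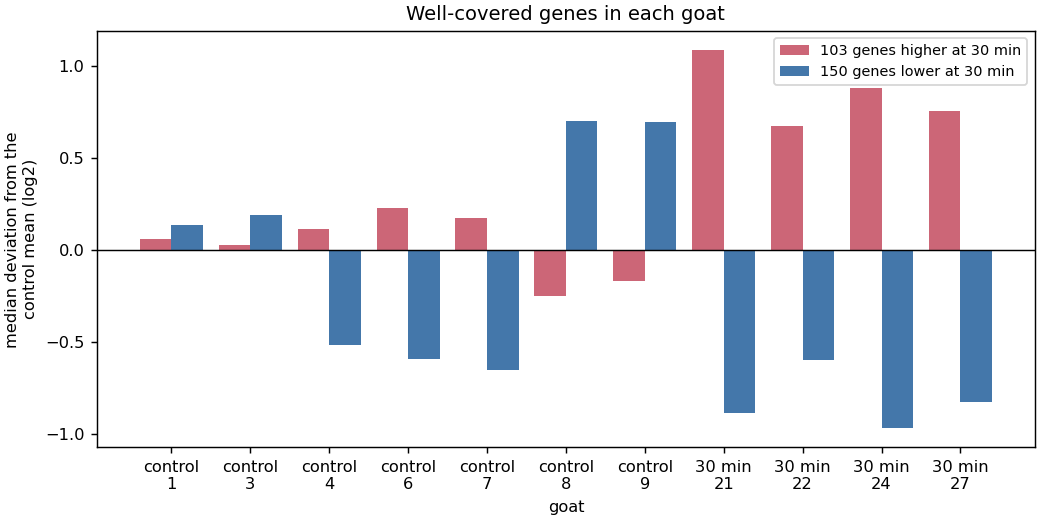
Median deviation from the control mean, on the log2 scale, of the 103 higher (red) and 150 lower (blue) well-covered genes in each of the 7 control and 4 transported goats. In the higher genes the transported goats (0.68 to 1.08) are apart from the control goats (-0.25 to 0.23), and in the lower genes control goat 7 (-0.65) lies within the range of the transported goats (-0.60 to -0.97), with control goats 4 and 6 (-0.52 and -0.59) next to it.

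Genes of the cell cycle, replication and DNA repair were all lower. Of 70 genes, 9 were listed and 8 well covered (median -0.80). None was called, 4 were at an unadjusted p under 0.05 in limma and 1 was without overlap. Among the well-covered genes the shares in that direction were 0.395%, 20.6% and 1.98%. *MBD4*, a glycosylase that removes thymine from mispairs at CpG sites, had 178, 134, 164 and 250 counts against 252, 281 and 381 (-0.74 ± 0.24, adjusted p = 0.0980, exact p = 0.00303), so all transported goats lay just below all control goats. Scaled by effective library size, as in FPKM, its groups overlapped (2.83 in the highest transported goat against 2.79 in the lowest control goat). *CCNB2*, a mitotic cyclin, had 53.1, 47.1, 16.7 and 59.4 against 55.7, 94.6 and 145 (-1.16 ± 0.40, adjusted p = 0.101; -0.76 without goat 24). *PLK1*, a mitotic kinase, had 114 ± 54.0 against 197 ± 58.4, and *RAD54L*, of homologous recombination, differed by -0.80 ± 0.29 on the log2 scale. When goats were centred on their median listed gene the median of the 8 genes was -0.11, *MBD4* was at -0.05 and 2 of the 8 turned higher. Scaled by effective library size, all 8 stayed lower (median -0.75).

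The well-covered lower genes without overlap were 5, of which *MBD4* alone falls under the naming rule. The others were *PRAG1*, *UBTF*, *PMEPA1* and 1 unnamed gene. *PRAG1*, a pseudokinase, had 930, 814, 987 and 1066 counts against 1166, 1532 and 1662 (-0.63 ± 0.21, adjusted p = 0.101). *UBTF*, which drives transcription of ribosomal RNA genes, had 1395 ± 37.0 against 1768 ± 208 (-0.33 ± 0.20, adjusted p = 0.152). Scaled by effective library size the groups of *UBTF* overlapped too. On the median-centred scale both genes turned to small positive values, 0.06 for *PRAG1* and 0.36 for *UBTF*, and no well-covered gene was lower without overlap. *PMEPA1*, an inhibitor of TGF-β signalling, had 46.8 ± 14.2 against 92.5 ± 24.1 (-0.99 ± 0.31, adjusted p = 0.0964).

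The one gene that fell was the unnamed protein-coding gene ENSCHIG00000023910 on chromosome 3 (66378135 to 66393019). It had 0, 0, 11.6 and 19.8 counts in the transported goats against 30.3, 76.4 and 150 in the control goats. Its groups did not overlap, at a mean of 7.84 ± 9.66 against 79.2 ± 44.3 (-4.12 ± 0.88, adjusted p = 0.0430, exact p = 0.00303). The size of the log2 difference depends on the pseudocount, since 2 transported goats had no read.

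Metabolic genes went both ways. Of 76 genes of glucose, lipid and redox metabolism, 11 were listed and 9 well covered, 6 higher and 3 lower with none called (median 0.67). At an unadjusted p under 0.05 were 6 higher and 2 lower members, beside 28.5% and 20.6% of the well-covered genes, of which 2.77% were called higher and 0.395% lower. *VNN1*, a pantetheinase, was higher at 126 ± 77.5 against 48.4 ± 14.6 (1.24 ± 0.37, adjusted p = 0.0912). *CERS4*, a ceramide synthase, had 276, 316, 344 and 270 against 311, 693 and 998 (-0.93 ± 0.35, adjusted p = 0.103). *DHRSX*, a dehydrogenase, had 99.4 ± 4.78 against 231 ± 115, and its transported goats lay at the bottom of the control range, whose lowest value was 94.5.

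A few lists had 1 or 2 members in the table. *RPL36*, the only listed ribosomal protein gene of 77, had 3727, 2775, 2575 and 1778 counts against 1272, 4683 and 18050, and its difference of -0.76 ± 0.70 was small against the control spread (adjusted p = 0.302, exact permutation p = 0.336) and was -0.42 without control goat 8. *MX2*, the only interferon-stimulated gene of 36, had 3073 counts in goat 21 and 594 to 1181 in the other transported goats, against 516 to 920 in the control goats (0.61 ± 0.40, adjusted p = 0.174). Without goat 21 the difference of *MX2* was 0.14. *CA2*, a carbonic anhydrase and the one red cell gene, had 474 ± 160 against 288 ± 92.8, and the natural killer cell genes went both ways, with *NCR3*, a receptor of these cells, at 177 ± 15.5 against 354 ± 208 and *FasL*, described above, higher without overlap.

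The 177 genes under a mean of 50 were 24 higher and 153 lower. In 97 of the 153 lower genes no transported goat had more than 3 reads, and in 70 of them 1 goat held over 50% of the normalized counts. In 9 of the 24 higher genes no control goat had more than 3 reads. At this depth the size of these differences could not be given with useful precision. The genes closest to the limit were *TG*, *PIGB* and *HSF4* above it, at mean counts of 50.5, 50.5 and 51.2, and *C15orf61*, *INHBA* and *NUDCD1* below it, at 49.1, 48.9 and 47.0. All 6 were lower in the transported goats.

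Another group of 7 goats was transported for 180 min and compared with the same control goats. Its table shared 120 genes with the present one, 76 of them well covered. In FPKM, which use 1 library size per goat in both tables, 21 named genes were compared between 30 and 180 min with no control goat in the test. *PTX3* had 105 ± 32.7 FPKM at 30 min (n = 4) and 646 ± 768 at 180 min (n = 7; exact permutation p = 0.112), *GADD45A* had 18.4 ± 3.58 and 18.6 ± 14.5, and *MS4A1* had 28.8 ± 3.60 and 27.7 ± 10.1. The smallest p over the 21 genes was 0.0909, for *PLK1*, in exact permutation tests (0.877 after Benjamini-Hochberg adjustment). These genes stand in both tables, so each had already been picked for differing from the same control goats at both durations, and the comparison says nothing of genes listed at 1 duration alone.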

How the data were processed

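Blood RNA libraries of 4 goats transported for 30 min and 7 control goats were used. Per the authors, cleaned paired-end reads were mapped to the goat genome with HISAT2. The counting tool and the genome build are not given in the sources used here. The deposited table holds raw read counts, normalized counts (a signal equal to the count divided by 1 DESeq2 size factor per goat), FPKM, and the authors' log2 fold changes and p-values, which were not used as results. The 430 rows are those with a deposited p-value under 0.05.

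Here log2(normalized count + 1) was compared with limma 3.58.1 (lmFit, eBayes, two-sided, R 4.3.3) over all 430 genes with Benjamini-Hochberg adjustment. Counts were not the main scale, because dispersions and TMM factors of the full transcriptome cannot be had from selected genes; edgeR 4.0.16 (quasi-likelihood) and DESeq2 1.42.0 on the raw counts were alternatives. Single genes were also tested by exact two-sided permutation over 330 splits, with no adjustment. The fits were tested on simulated data. Named genes were the well-covered named genes that were called without overlap and, in each of 22 gene lists, up to 4 well-covered members by smallest limma p (41 genes). Lists were described by counts and medians, and a gene can stand in several lists. The members and lists were chosen with earlier results of these data known. Each library came from 1 goat. Precision is limited by 4 and 7 goats, and, for low genes, by read number. Of the 311 names, 287 were found in the goat annotation (RefSeq, ARS1.2), from which no coordinates were taken; positions are those of the table. Promoter sequences were not analysed here. Reads of overlapping or near-identical genes may be shared, since the counting rules are not given. One listed gene is not reported here.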

Additional observations from a re-analysis of the deposited data

Results flagged for a closer look

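Within 1 group, 6 of the 41 named genes had a goat far from the others on the log2 scale, by Dixon's ratio of the gap to the range. Both groups of each gene were examined, 82 in all, and chance alone gives about 1 such group in 20. Control goat 8, the smallest library, was the goat apart in 4 of them. In *NFKBIA* it had 437 normalized counts (gap over range 0.726). In *CEBPB* it had 1038 counts (0.623) and in *LITAF*, which encodes a regulator of inflammatory gene expression, 125 counts (0.616). In *RAD54L* it was the highest control goat at 125 counts (0.590). Without this goat *NFKBIA* and *CEBPB* kept an adjusted p under 0.05 in limma. In the 30 min group, goat 21 had 3934 counts of *PTX3* (0.920) and goat 22 had 1707 counts of *MYC* (0.860), the latter below the 3 other goats.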

How the results depend on the processing

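The 9 calls depended on the method. None of the 9 called genes changed direction in the settings that kept it in the table (2 settings drop *TRIM45*), and *MS4A1* alone of the 41 named genes did, at 0.27 after centring each goat on its median listed gene, which moved the median of all genes by 0.69.

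Genes called higher among all (well-covered) genes were 8 (7) as reported, 117 (100) with DESeq2, 17 (14) with edgeR's TMM, 23 (19) with edgeR and the deposited factors, 118 (98) with median centring, 14 (12) with a pseudocount of 10, 18 (18) with a variance trend and 20 (20) with the well-covered genes fitted alone. Genes called lower were 1 (1) as reported, 238 (136), 0 (0), 0 (0), 3 (1), 2 (1), 1 (1) and 2 (2) under these settings, and 0 (0) with a pseudocount of 0.1. Exact permutation p-values left 0 (0) in both directions after adjustment, with 112 (93) higher and 89 (66) lower unadjusted; 330 splits bound its adjusted p. The genes DESeq2 called had been listed by a DESeq2 test. Unadjusted lower genes, 105 (52) as reported, were 269 (148) with DESeq2, 193 (113) with edgeR and the deposited factors and 9 (2) with median centring. Genes without overlap were 81 (77) higher and 0 (0) lower with median centring, and 4 (3) lower with effective library sizes, where *MBD4* and *UBTF* overlapped.

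Leaving out each goat gave 0 to 10 (0 to 8) called higher, 0 to 11 (0 to 1) called lower, 51 to 87 (36 to 65) unadjusted higher, 47 to 135 (25 to 80) unadjusted lower, 30 to 53 (27 to 46) without overlap higher and 9 to 25 (5 to 20) lower. None was called without control goat 1 or 30 min goat 24, and 11 were called lower without control goat 9. *SOCS1* kept its call in 9 and *NFKBIA* in 8 of the 11 fits, *GADD45A* in 6, *CEBPB* and *PTX3* in 5, *RAB3D* and ENSCHIG00000023910 in 3 and *CXCR4* and *TRIM45* in 2. Their log2 differences over these fits ran from 2.34 to 2.74 for *SOCS1*, 1.32 to 1.54 for *GADD45A* and 1.09 to 1.25 for *CXCR4*. The cause was not tested. No paired analysis was possible because the groups share no replicate numbers.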
